A study of Homo sapiens with 19 samples.

Results

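Filamins, alpha-actinins and RAI14 are actin-associated proteins, and 5 of their genes, FLNA, FLNC, ACTN1, ACTN4 and RAI14, were followed here among the 11998 genes named in the 15 deposited splicing tables. Every table row carrying 1 of these 5 symbols was taken, which gave 140 rows of 218798 and 58 different splicing events of 100239. The genes were chosen on differences seen earlier in these same libraries, so the values below describe them and do not test whether they stand apart from other genes.

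The cells were HMLE/Twist-ER, a TERT-immortalized human mammary epithelial cell line that carries the transcription factor Twist fused to an estrogen receptor domain, so that tamoxifen switches Twist on and drives an epithelial-mesenchymal transition (EMT). Untreated cells are called EPI, and cells kept in 20 nM tamoxifen until their morphology was mesenchymal are called MES. Every RNA-seq group stably expressed a lentiviral shRNA, either a non-specific one (3 EPI_Control and 3 MES_Control libraries) or one against the splicing regulator AKAP8 (3 EPI_shAKAP8 and 2 MES_shAKAP8 libraries). The labels do not say which hairpin was used, and each knockdown is a stable line, so hairpin and line cannot be told apart from the loss of AKAP8. The study calls its RNA-seq libraries biological replicates, but the tables do not number them, and they are given here in the order listed. AKAP8 binding was read by single-end enhanced crosslinking and immunoprecipitation (seCLIP) of EPI and MES cells whose labels name no shRNA, with 2 AKAP8 libraries and 2 size-matched inputs per state merged into 1 peak list.

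Filamins are long dimeric proteins that crosslink actin filaments into networks through a string of immunoglobulin-like repeats interrupted by hinges. FLNA is the widely expressed member and FLNC the muscle member. Alpha-actinins are shorter antiparallel dimers that bundle actin in stress fibres and adhesions. ACTN1 and ACTN4 are the non-muscle members, and both end in EF-hand domains. In ACTN1 a pair of neighbouring exons is used as alternatives within that EF-hand region, one typical of non-muscle cells and the other of smooth muscle, and the non-muscle version makes actin binding sensitive to calcium. RAI14, also called ankycorbin, is an ankyrin-repeat and coiled-coil protein that binds the actin cortex.

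The results turn on 4 exons, shown with 40 intron bases on each side because 3 of them are the segments that reached 10 points and the ACTN1 81-nt exon is the alternative to one of these. Each is written 5′ to 3′ on the transcript strand of GRCh37, with the exon in capitals and the introns in lower case. The FLNA exon occupies chrX:153585619-153585642 on the minus strand, the RAI14 exon chr5:34813679-34813765 on the plus strand, and the ACTN1 exons chr14:69345175-69345240 and chr14:69345706-69345786 on the minus strand.
FLNA 24-nt exon: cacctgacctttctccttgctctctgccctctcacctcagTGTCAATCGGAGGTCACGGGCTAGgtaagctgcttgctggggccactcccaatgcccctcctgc
RAI14 87-nt exon: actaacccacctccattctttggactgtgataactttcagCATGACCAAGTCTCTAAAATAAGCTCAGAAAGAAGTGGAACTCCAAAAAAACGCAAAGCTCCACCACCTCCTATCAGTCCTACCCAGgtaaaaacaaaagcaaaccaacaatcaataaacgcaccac
ACTN1 66-nt exon: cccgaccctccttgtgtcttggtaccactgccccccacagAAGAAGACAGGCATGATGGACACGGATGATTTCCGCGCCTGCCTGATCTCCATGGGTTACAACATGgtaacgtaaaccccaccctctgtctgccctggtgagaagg
ACTN1 81-nt exon: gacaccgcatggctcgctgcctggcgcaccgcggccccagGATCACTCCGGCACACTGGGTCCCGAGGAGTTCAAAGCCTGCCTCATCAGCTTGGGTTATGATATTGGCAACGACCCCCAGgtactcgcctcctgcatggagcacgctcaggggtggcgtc

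All 4 exons are coding in Gencode v44 lifted to GRCh37 and hold whole codons, so including or skipping any of them keeps the reading frame. The FLNA exon adds 8 codons and is in 2 of 7 protein-coding FLNA transcripts. The RAI14 exon adds 29 codons and is in 5 of 14. In ACTN1 the 66-nt exon, 22 codons long, is in 11 of 25 transcripts and the 81-nt exon, 27 codons long, is in 8. The 81-nt exon is the non-muscle version and the 66-nt exon the smooth muscle version.

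AKAP8 itself was lower in the knockdown libraries. Its summed junction reads, scaled for library depth, were 244, 310 and 245 in EPI_Control and 121, 98.8 and 125 in EPI_shAKAP8. They were 382, 196 and 248 in MES_Control and 108 and 122 in MES_shAKAP8, so that no knockdown library reached a control library. The log2 fold change was -1.20 ± 0.25 (SE) in EPI, which missed the gene cutoffs given with the gene levels (adjusted p = 0.066 by limma), and -1.20 ± 0.28 in MES, which met them. The EMT labels also held in the markers that had an exon-skipping event to be counted in. Of 9 epithelial genes listed, 5 had one, and all 5, among them CDH1, were lower in MES. Of 8 mesenchymal genes listed, 7 had one, and all 7, among them VIM and ZEB1, were higher in MES. All of these passed the same cutoffs. A gene without such an event was not measured, which does not mean that it was not expressed. The summed epithelial level was 7352 to 8773 in EPI_Control and 547 to 896 in MES_Control. None of the 5 muscle markers listed had an event to be counted in. Junction reads over exon-skipping events, in units of 1e6, numbered 21.2 to 28.3 per library.

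Splicing was measured as percent spliced in (PSI), the share of junction reads, each form divided by its effective length, that include a segment. A splicing event met the cutoffs when its PSI differed by at least 10 percentage points at an adjusted p under 0.05, from a quasi-binomial test over all events of its type with a mean of at least 20 junction reads per library. For the 5 genes, 36 of 37 deposited events were tested in the EPI knockdown comparison, 53 of 53 in the MES knockdown comparison and 49 of 50 in the comparison of MES with EPI controls. Those meeting the cutoffs numbered 2, 2 and 3. Over all genes 0.0492%, 0.054% and 1.59% of tested events met them. Since these comparisons chose the genes, nothing is read from that contrast, and no p-value is attached to the events that met the cutoffs. The EPI knockdown and the EMT comparison share the EPI_Control libraries, and the MES knockdown comparison uses 2 of the 3 MES_Control libraries of the EMT comparison.

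Most segments of these genes barely moved. The median absolute difference in PSI over their tested events was 0.035 points in the EPI knockdown, 0.0946 in the MES knockdown and 0.0781 in EMT, against 0.777, 1.01 and 0.934 points over all tested events. Differences of 10 points or more belonged to 3 segments, 1 each in FLNA, RAI14 and ACTN1, and the next largest was 6.72 points.

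**Figure D1:**
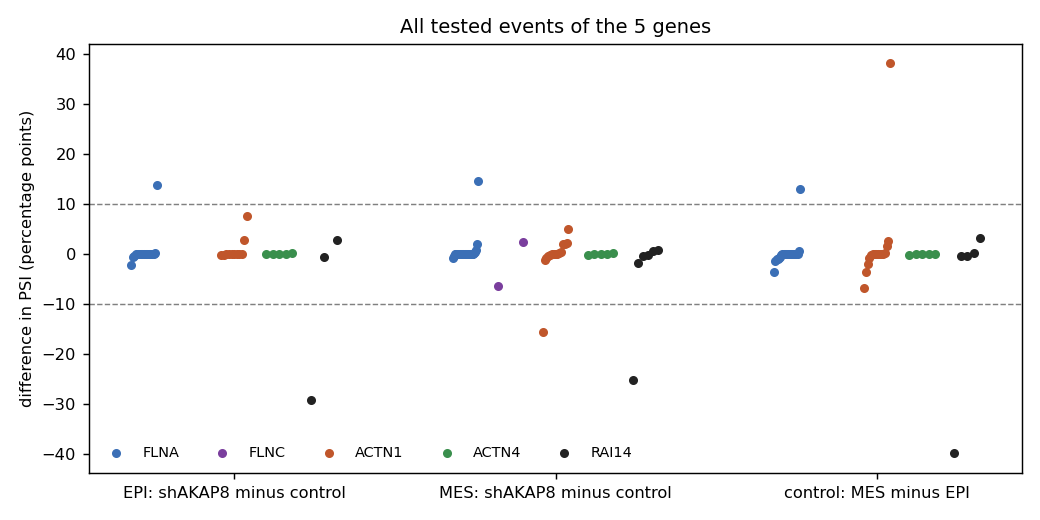
Difference in PSI (percentage points, y axis) of every tested event of the 5 genes, in the EPI knockdown, the MES knockdown and the EMT comparison (x axis). Each point is an event, colours mark the genes and dashed lines mark 10 points; 1 FLNA event lies above the upper line and 1 RAI14 event below the lower line in all 3 comparisons, and nearly all other events sit near 0.

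The 24-nt exon of FLNA was included more often in knockdown cells than in controls and more often in MES than in EPI. PSI in EPI_Control was 54.5, 54.3 and 54.3%. In EPI_shAKAP8 it was 71.8, 68.3 and 64.4%. Both groups lay clear of each other, and the 3 control libraries were within 1 point.
In MES_Control the exon was included in 66.3, 64.8 and 71.0% and in MES_shAKAP8 in 80.7 and 79.6%. The knockdown libraries were again the higher ones, and the MES controls fell in the range of the EPI knockdown libraries. Between 2004 and 5278 junction reads per library stood behind these values, the best depth among the segments that moved.

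Inclusion of the FLNA exon was 13.8 ± 2.13 points higher in knockdown than in control libraries of EPI cells (mean difference ± SE, n = 3 and 3). In MES cells it was 14.5 ± 0.92 points higher in knockdown libraries (n = 2 and 2). Among controls it was 13.0 ± 1.85 points higher in MES than in EPI (n = 3 and 3). All 3 differences met the cutoffs, also with any single library left out, where they ranged from 11.99 to 15.7, from 13.8 to 15.3 and from 11.2 to 14.3 points. In MES cells such a fit leaves 1 library in an arm, which is assumed to vary like the 2 of the other arm. With the third MES_Control library added, the MES difference was 12.8 points. None of the 3 met them when limma was run on the logit of PSI instead (adjusted p = 0.91, 0.94 and 0.60).

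No other FLNA segment came near this size. Its other 20 exon-skipping events, over 16 segments, had a PSI of 97.6 to 100% in every library. Over its 16 other tested events of all types in the EPI knockdown, differences ran from -2.20 to 0.13 points, and over 22 in EMT from -3.50 to 0.68 points.

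**Figure D2:**
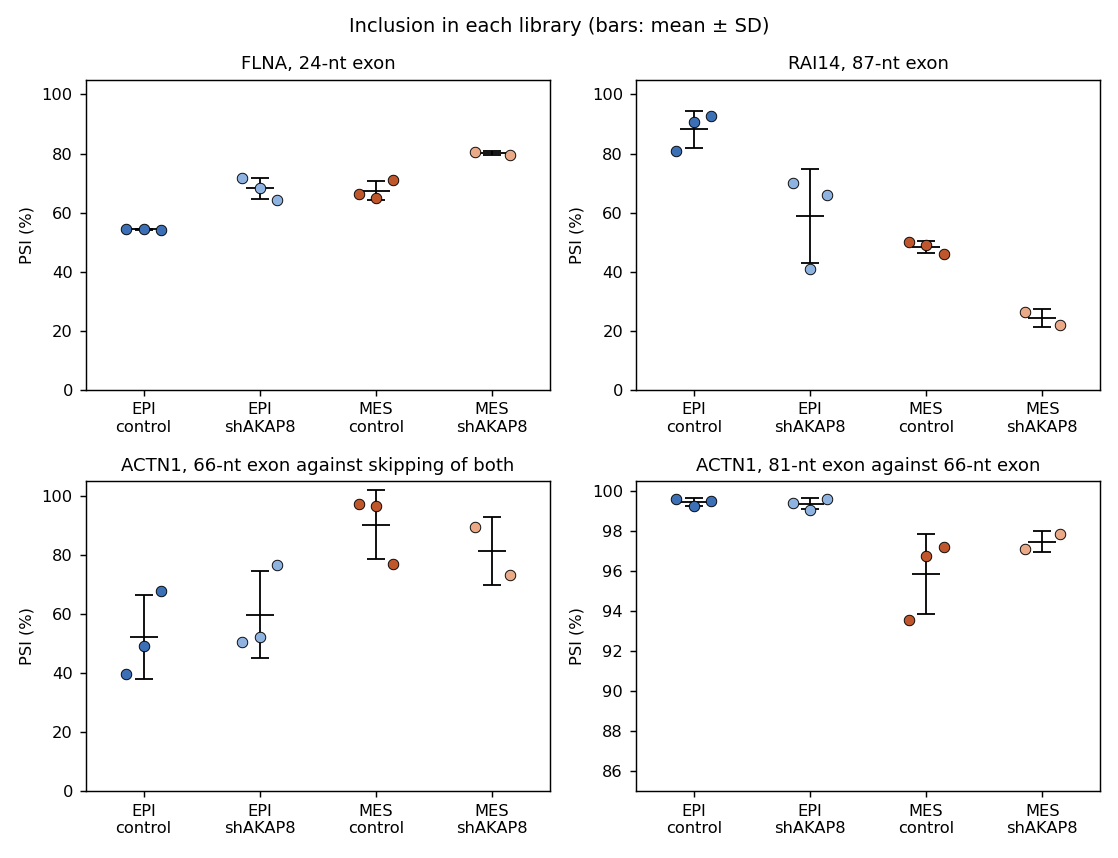
PSI (%, y axis) in each library of the 4 groups (x axis) for the FLNA exon, the RAI14 exon, the ACTN1 66-nt exon against skipping of both alternative exons, and the ACTN1 81-nt exon against the 66-nt exon (y axis from 85%). Points are libraries and bars are mean ± SD; FLNA rises and RAI14 falls with knockdown in both states, and the ACTN1 81-nt form leaves the ceiling in MES cells, with 93.6 to 97.9% over MES libraries.

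The 87-nt exon of RAI14 moved the other way and further. PSI was 80.99, 90.8 and 92.8% in EPI_Control and 69.9, 40.8 and 66.03% in EPI_shAKAP8. It was 49.9, 48.9 and 46.1% in MES_Control and 26.4 and 22.0% in MES_shAKAP8. The exon was thus in most RAI14 transcripts of epithelial controls and in the minority of transcripts in mesenchymal knockdown cells, and knockdown and control libraries did not overlap in either state. The second EPI_shAKAP8 library, the lowest in PSI of its group, also had the fewest reads at this event, 144 against 172 to 360 in the other libraries.

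Inclusion of the RAI14 exon fell by 29.3 points on knockdown in EPI cells (SE 9.84, n = 3 and 3). In MES cells it was 25.2 points lower in knockdown libraries (SE 2.24, n = 2 and 2). Among controls it was 39.9 points lower in MES than in EPI (SE 3.81, n = 3 and 3). All 3 differences met the cutoffs. Without the second EPI_shAKAP8 library the EPI difference was -20.2 points and still met them, whereas without the third EPI_Control library it was -27.0 points at an adjusted p of 0.0502 (quasi-binomial test) and did not. In MES cells, leaving out any 1 of the 4 libraries left a difference of -27.4 to -23.0 points that no longer met them (adjusted p = 0.22 to 0.93 by the quasi-binomial test). With the third MES_Control library added it was -24.1 points and met them. With limma on the logit of PSI neither knockdown difference met the cutoffs (adjusted p = 0.76 in EPI and 0.93 in MES) and the EMT difference did.

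No other RAI14 segment differed by more than 3.20 points. Of its 5 other exon-skipping events, 4 kept a PSI above 95% in every library, while a 181-nt segment at chr5:34688173-34688353 was skipped in nearly all reads, with a PSI of 0 to 0.5%. 

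The size of the knockdown effect was not shown to differ between states. All 11 libraries were used, including the third MES_Control library that the MES comparison lacks. The MES effect minus the EPI effect was -1.06 ± 2.87 points for the FLNA exon and 5.16 ± 10.1 points for the RAI14 exon (± SE). The quasi-binomial interaction test gave adjusted p = 0.85 and 0.70. It works on the logit scale, so these p-values do not test the differences in points. Of 31 events of the 5 genes tested for such a difference, 0 met the cutoffs by the quasi-binomial test and 0 by limma on the logit of PSI, against 0.00989% of all tested events. At an unadjusted p under 0.05 there were 3 and 1. Both differences in points were smaller than their SE. The FLNA value turned sign without the first EPI_shAKAP8 library (0.76 points) or the third MES_Control library (0.73 points), and was -2.93 points without the third EPI_shAKAP8 and -2.33 points without the second MES_Control library. The RAI14 value turned sign without the second EPI_shAKAP8 library (-3.92 points) and with PSI not divided by effective lengths (-5.01 points).

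ACTN1 used its 81-nt non-muscle exon almost exclusively in epithelial cells. Taken as mutually exclusive alternatives, the 81-nt exon had 99.6, 99.3 and 99.5% of the use in EPI_Control and 99.4, 99.1 and 99.6% in EPI_shAKAP8. In MES_Control it had 93.6, 96.8 and 97.2%, and in MES_shAKAP8 97.1 and 97.9%. Every MES library lay below every EPI library, yet the smooth muscle form stayed a small minority. The EMT difference was -3.60 ± 1.16 points (SE, n = 3 and 3), under the 10 points required (adjusted p = 0.054, quasi-binomial test).

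Seen against transcripts that skip both alternatives, the rare 66-nt exon of ACTN1 gained ground in MES cells. PSI was 39.9, 49.1 and 67.9% in EPI_Control and 97.4, 96.8 and 77.0% in MES_Control. The difference of 38.1 ± 10.6 points was the only ACTN1 difference to meet the cutoffs, which it did with any single library left out (31.9 to 45.9 points). It rests on few reads, 18 to 39 in the EPI_Control libraries and 72 to 190 in MES_Control, because most ACTN1 RNA carries the 81-nt exon and does not enter this event.
In knockdown cells the same measure was 50.6, 52.2 and 76.9% in EPI_shAKAP8, overlapping the controls, and 89.5 and 73.4% in MES_shAKAP8, below both MES controls of that comparison but on either side of the third MES_Control library (77.0%). Neither knockdown difference met the cutoffs: 7.60 ± 11.8 points in EPI (adjusted p = 0.88, and -0.88 to 15.4 points with single libraries left out) and -15.7 ± 8.09 points in MES (adjusted p = 0.59). The MES difference was -8.96 points with the third MES_Control library, -23.8 points without the first MES_shAKAP8 library and -7.59 points without the second, and it met the cutoffs in none of these.

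The event of the 66-nt exon with most reads, at which the alternative is the 81-nt exon joined straight to the next exon, had a PSI of 0.42% ± 0.21 in EPI_Control and 2.12% ± 0.69 in MES_Control (SD, n = 3 each). The 2 events share the junction that leaves the 66-nt exon, so they are not independent. Of the other 12 exon-skipping events of ACTN1, 11 had a PSI above 95% in every library. The exception was the 81-nt exon measured between its upstream neighbour and the 66-nt exon, at 99.2, 99.0 and 99.2% in EPI_Control and 87.1, 94.4 and 95.7% in MES_Control.

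The measured ACTN4 exons were included in nearly all reads. Its segment with the largest difference, at chr19:39216364-39216543, had a PSI of 99.98% ± 0.035 in EPI_Control and 99.75% ± 0.26 in MES_Control (SD, n = 3 each), and its other 4 events had 99.6 to 100% in every library. FLNC gave few reads. Its 99-nt exon at chr7:128490030-128490128 had 3 to 10 reads in EPI libraries and 19 to 39 in MES libraries, so only 2 FLNC events, in the MES knockdown comparison, could be tested. The larger of their differences was at the 168-nt segment chr7:128487751-128487918, with a PSI of 100 and 100% in the MES controls and 87.1 and 100% in MES_shAKAP8 on 29 to 66 reads (adjusted p = 0.76).

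Gene levels were taken as the junction reads summed over the exon-skipping events of a gene, scaled by size factors, so they compare libraries within a gene and not genes with each other. The cutoffs were an absolute log2 fold change over 1 at an adjusted p under 0.05 (limma on log2 of the value plus 1), which 0.189% of genes met in the EPI knockdown, 2.27% in the MES knockdown and 12.5% in EMT. Of the 5 genes, 0 met them in either knockdown (0 at an unadjusted p under 0.05 by limma), and 1, FLNC, met them in EMT. A gene was tested when it reached 10 scaled reads in at least 2 libraries. FLNC did so only in MES libraries, where it is high, so its EMT call is a description and no support is drawn from it. With bulk RNA, more cells carrying a transcript and more transcript per cell cannot be told apart.

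FLNC was barely detected in EPI cells and low in MES cells. Its scaled level was 4.74, 9.84 and 6.20 reads in EPI_Control and 38.2, 19.4 and 37.9 in MES_Control, with every MES library above every EPI library, a log2 fold change of 2.04 ± 0.46 (SE) on the log2(value + 1) scale. EPI_shAKAP8 had 2.87, 5.99 and 4.16, and MES_shAKAP8 23.0 and 21.0. The whole level came from 1 event.

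FLNA was higher in MES by less than the cutoff. Its level was 36153, 45970 and 33586 scaled reads in EPI_Control and 67110, 66311 and 57045 in MES_Control, a log2 fold change of 0.73 ± 0.21, which is 1.66-fold and under the 2-fold cutoff (adjusted p = 0.022 by limma, with 0.0028 to 0.080 when single libraries were left out). Read coverage along FLNA differed between libraries: over its 12 events measured in all tables the log2 ratio of MES to EPI controls ran from 0.37 to 0.92. Knockdown and control libraries of FLNA overlapped in both states, with log2 fold changes of 0.01 ± 0.21 in EPI and 0.07 ± 0.23 in MES.

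Neither alpha-actinin met the cutoffs in EMT. ACTN1 was at 18544 ± 1808 scaled reads in EPI_Control and 17553 ± 2871 in MES_Control (SD, n = 3 each), a log2 fold change of -0.09 ± 0.18 (SE). ACTN4 was at 16028 ± 2030 and 13199 ± 1359, a log2 fold change of -0.28 ± 0.17 (adjusted p = 0.26). Their knockdown differences were 0.18 ± 0.18 and 0.17 ± 0.17 in EPI, and 0.16 ± 0.21 and 0.11 ± 0.19 in MES, on the log2 scale.
RAI14 had 683, 548 and 860 scaled reads in EPI_Control, 667, 368 and 740 in EPI_shAKAP8, 802, 978 and 809 in MES_Control and 538 and 700 in MES_shAKAP8. The MES knockdown libraries lay below all 3 MES controls, with a log2 fold change of -0.49 ± 0.28 that did not pass the test (adjusted p = 0.34). The EPI groups overlapped.

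**Figure D3:**
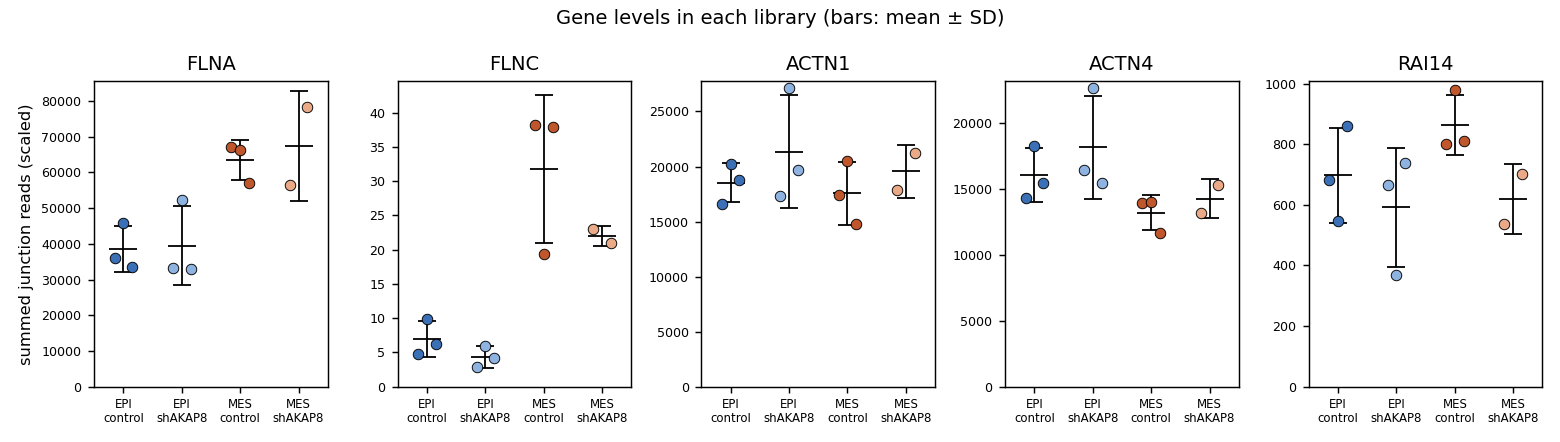
Scaled junction reads per gene (y axes from 0, a separate scale for each gene) in each library of the 4 groups (x axis). Points are libraries and bars are mean ± SD; FLNC and FLNA are higher in both MES groups, with FLNC under 10 reads in every EPI library, while the EPI and MES controls overlap for ACTN1 and RAI14 and the 3 MES controls of ACTN4 lie just below its EPI controls.

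The seCLIP lists placed AKAP8 on FLNA, ACTN1 and ACTN4 RNA. High-confidence peaks were those with a log2 of IP over input of at least 2 and a -log10 p of at least 3. Overlapping peaks of a list were merged, and a peak was counted on a gene when it overlapped it by 1 base or more on the same strand. EPI cells had 22 merged peaks on ACTN1, 10 on ACTN4 and 3 on FLNA, and MES cells 12, 5 and 7. RAI14 had 0 in EPI and 1 in MES, and FLNC 0 in both. With 1 merged list per state there is no replicate check on these counts. Of 8203 protein-coding genes with a level, 20.8% carried a peak in EPI and 12.6% in MES, a share not matched for expression or gene length. FLNA peaks found in both states numbered 1, ACTN4 peaks 3, and ACTN1 peaks 9 of the EPI list and 8 of the MES list.

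**Figure D4:**
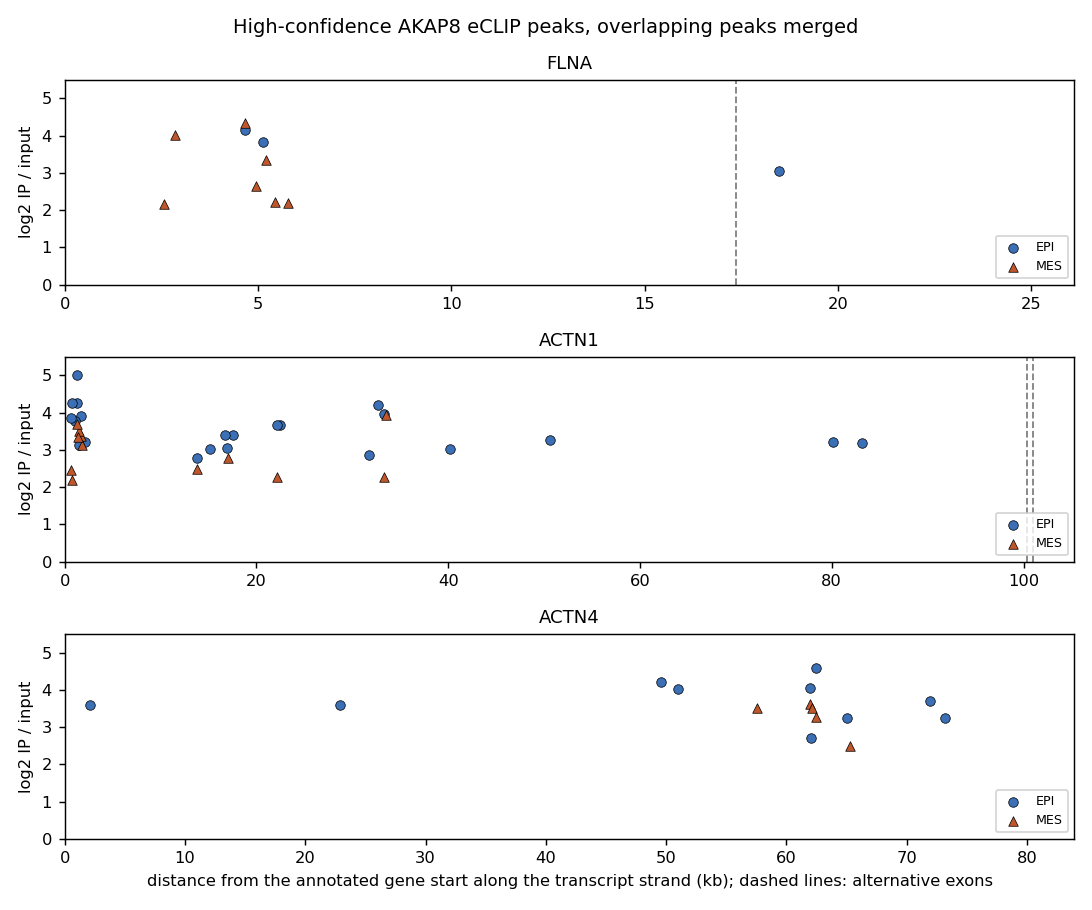
log2 of AKAP8 IP over input (y axis) of the merged high-confidence peaks on FLNA, ACTN1 and ACTN4 against distance from the annotated gene start (kb, x axis), with circles for EPI and triangles for MES. Dashed lines mark the alternative exons; FLNA peaks crowd near 5 kb with 1 EPI peak beyond its exon, ACTN1 peaks lie far upstream of its exons, and ACTN4 peaks of both states meet near 62 kb.

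Most of these peaks were intronic. All 10 FLNA peaks, all 15 ACTN4 peaks and the RAI14 peak lay in introns, as did 17 of 22 ACTN1 peaks in EPI and 7 of 12 in MES. The remaining ACTN1 peaks fell on exons near the gene start. Of these, 5 intronic peaks are shown, namely the FLNA peak nearest its alternative exon and the highest intronic peak of FLNA in MES, of ACTN4 and ACTN1 in EPI and of RAI14 in MES, with runs of GGG in capitals, which nearly every peak of these lists holds.
FLNA EPI peak: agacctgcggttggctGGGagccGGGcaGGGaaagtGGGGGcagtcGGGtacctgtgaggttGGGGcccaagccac
FLNA MES peak: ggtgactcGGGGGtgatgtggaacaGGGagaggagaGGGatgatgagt
ACTN4 EPI peak: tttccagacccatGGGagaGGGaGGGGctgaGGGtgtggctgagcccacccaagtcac
ACTN1 EPI peak: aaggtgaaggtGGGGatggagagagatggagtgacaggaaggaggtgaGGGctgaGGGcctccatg
RAI14 MES peak: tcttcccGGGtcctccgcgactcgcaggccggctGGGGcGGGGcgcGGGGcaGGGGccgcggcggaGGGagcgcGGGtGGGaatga

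A GGG run stood in all 35 merged EPI peaks of the 5 genes and in 24 of 25 MES peaks, beside 99.0% and 97.3% of all merged peaks of the lists. The FLNA EPI peak at chrX:153584497-153584572 had a log2 of 3.05 and a -log10 p of 8.63. It began 1046 bases downstream of the 24-nt exon, in the intron that follows it, and no MES peak overlapped it. In MES the nearest FLNA peak lay 11567 bases upstream of the exon. The FLNA peak common to both states, at chrX:153598319-153598366 in MES, reached a log2 of 4.33 in MES and 4.15 in EPI.

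The ACTN4 peak shown, at chr19:39200718-39200775 with a log2 of 4.58 in EPI and 3.27 in MES, ended 121 bases before the exon at chr19:39200897-39200982, which was included in nearly all reads. The ACTN1 peak shown is at chr14:69413493-69413558 (log2 4.20), and the nearest EPI peak to either alternative ACTN1 exon lay 17137 bases upstream of the 81-nt exon. The RAI14 peak, at chr5:34656851-34656936 with a log2 of 3.02, was 156742 bases upstream of the 87-nt exon. For scale, 2.92% of tested exons in EPI and 1.76% in MES had a high-confidence peak within 1000 bases. None of the 4 alternative exons did, although the FLNA exon in EPI, at 1046 bases, lay just outside that window. Within 2 kb the shares were 4.66% in EPI and 2.87% in MES, and the FLNA exon in EPI would count. Distance to a peak is a description of position and shows no effect of binding.

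The introns next to these exons were also read for short motifs on the transcript strand only, 250 bases on each side. TGCATG, the motif bound by RBFOX proteins, began 13 bases after the ACTN1 81-nt exon, within the flank printed above, and 167 bases before the RAI14 exon. It occurs upstream of 6.93% and downstream of 7.27% of 39005 tested exons. ACTAAC, a motif bound by QKI, occurred at 2 places upstream of the RAI14 exon, the nearer starting the printed flank, and upstream of 2.95% of tested exons. Both sides were searched, and on either side 13.7% of tested exons held TGCATG and 5.61% held ACTAAC. The windows beside the FLNA exon and the ACTN1 66-nt exon held neither, although the intron before the 66-nt exon is the one that follows the 81-nt exon and so holds that TGCATG farther away. GGG occurred 7 times before and 12 times after the FLNA exon, and in 84.3% of upstream and 86.2% of downstream windows of all tested exons.

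Other actin-associated genes, 34 partners and relatives, were also read. They were listed with earlier results known, so they give no background for the members. In the EPI knockdown 0 of 169 tested events met the cutoffs, by the quasi-binomial test or by limma on the logit of PSI (7 and 8 at an unadjusted p under 0.05), and in the MES knockdown 0 of 221 did by either (8 and 8). In EMT 9 of 232 events in 5 genes did by the quasi-binomial test, 6 with a higher and 3 with a lower PSI in MES, whereas limma on the logit of PSI called 4 events, all in SVIL and 2 of them among those 9, so that the other genes named next met the cutoffs by the quasi-binomial test only. CTTN, which encodes the branched-actin regulator cortactin, included its 111-nt exon in 67.9% ± 3.25 of EPI_Control and 82.2% ± 1.33 of MES_Control (SD, n = 3 each). SVIL, which encodes the membrane linker supervillin, gained a 171-nt exon from 2.22% ± 1.498 to 20.7% ± 1.35, as well as an 81-nt exon. PALLD, encoding the actin-bundling scaffold palladin, lost a 672-nt exon from 92.6% ± 4.50 to 80.1% ± 3.04, and also met the cutoffs at a mutually exclusive pair. FHL2, a LIM-domain gene, met them at 2 events of 1 segment with more inclusion, and TRIP6, encoding a zyxin relative, at 2 mutually exclusive pairs. At the gene level 0 of 24 partners met the cutoffs in either knockdown (2 in EPI and 6 in MES at an unadjusted p under 0.05 by limma). In EMT 2 did, FHL2 and VCL (vinculin), both higher in MES. For scale, 0.0492%, 0.054% and 1.59% of all tested events met the event cutoffs in the EPI knockdown, the MES knockdown and EMT. The gene cutoffs were met by 0.189%, 2.27% and 12.5% of all tested genes in the same order.

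Genes whose level followed the members most closely over the 11 libraries were TP53I11, FHL3 and JADE1 for FLNA (Pearson r = 0.95 to 0.96 of log2 values, among 9013 genes), and ANXA6, TFPI and TGFB1I1 for FLNC (r = 0.95 to 0.96). For ACTN1 they were HMGXB3, SRC and B4GALT1 (r = 0.91 to 0.97), for ACTN4 ZFYVE21, SMURF1 and BAZ2A (r = 0.92 to 0.93), and for RAI14 SLC39A6, PHC3 and KIAA0232 (r = 0.93 to 0.94). The exons whose PSI ran closest to the FLNA exon, among 4485 variable ones, were in SOCS7, CASK and TMEM9B (r = 0.91 to 0.92). Those closest to the RAI14 exon were in ADD3, DEPDC1 and ARAP1 (r = 0.94 to 0.95), of which ADD3 encodes an adducin, a cap of actin filaments. For the sparse ACTN1 66-nt event they were in RAB11FIP3 and SPECC1 (r = 0.96 for both). For the ACTN4 exon, which varied by under 1 point, they were in SLC37A3, ATG16L2 and IL17RE (r = 0.93 to 0.95). All points share the same 11 libraries in 4 groups, so these values describe likeness and carry no test.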

How the data were processed

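RNA-seq covered 11 libraries and seCLIP 8. The authors aligned reads to GRCh37 with STAR and counted junction reads per event with rMATS. The 15 deposited tables list the inclusion and skipping reads of a group's libraries in 1 field, without replicate numbers; libraries are named here in that order. PSI was recomputed from these reads and the deposited effective lengths, so 30 deposited per-sample PSI columns were not used, nor were the authors' p-values, FDR and PSI differences, nor their gene table of log2 fold changes and q-values. Peak heights (log2, immunoprecipitate to input) and their -log10 p are as deposited by the authors, who merged the 2 replicates of a state.

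Junction reads were tested event by event with a likelihood-ratio F test (quasi-binomial, 1 probability per group). Its dispersion was moderated with squeezeVar of limma 3.58.1 (robust, trend on reads of the rarer form, floor 1, trend value under 10 such reads). Types were fitted apart and p-values adjusted by Benjamini-Hochberg over all events of a type and comparison. The state difference was tested as the interaction on the logit scale over 11 libraries, while its values are given in PSI points. Gene levels, summed over 33107 exon-skipping events found in all 3 comparisons, counting a read once per event it supports, were scaled with size factors (median of ratios), filtered at 10 in at least 2 libraries (9014 genes) and tested with limma on log2(value + 1) in R 4.3.3. They change when splicing changes. Both tests were tried on simulated data whose spread between libraries was set beforehand and not taken from these libraries, so no support is drawn from that trial. Exon and peak positions were annotated from Gencode v44 (lifted to GRCh37), newer than the authors' Gencode v24, and sequences read with pysam 0.24.0.

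The 5 genes, the partner list, the markers and the motifs were chosen with earlier results of these data known. Segments were named when a tested difference reached 10 points in any comparison, 1 event per segment with most reads first; for a gene with none, its largest difference. Partners were named when they met the cutoffs, and 3 genes and exons were named per member by highest Pearson r, exons with a PSI range of at least 20 points. A gene of the partner list and an exon of the likeness lists are not reported here, and partner counts leave that gene out. The FLNC 99-nt exon, the ACTN1 exclusive pair and the ACTN1 events beside the one with most reads were added after their values were seen, as were the named segments given as nearest a peak. Intervals and SDs cover spread and counting error only. Alternatives tried were other dispersion trends, limma on logit PSI, minimum reads of 1, 10 or 50, unscaled PSI, each library left out, the third MES control, total-read scaling, pseudocounts of 0.5 and 5, no filter, 1 event per gene, all peaks, a log2 of 3, and overlap by 50% of the shorter peak.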

Additional observations from a re-analysis of the deposited data

How the results depend on the processing

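With limma on the logit of PSI, 0 events of the 5 genes met the cutoffs in the EPI knockdown and 0 in the MES knockdown, against 2 each; in EMT 2 did (RAI14 and ACTN1). Leaving out single libraries gave 1 to 2 events in the EPI knockdown, where RAI14 was lost without the third EPI_Control library, and 1 to 1 in the MES knockdown, where RAI14 was lost when any 1 of the 4 libraries was left out, which leaves 3 samples. The cause was not tested. A log2 of at least 3 left 14 MES peaks in place of 25, and 7 shared peaks in each list in place of 13 in EPI and 12 in MES, as a stricter threshold must. All other counts stayed within 1.5 times under every alternative run, and of the values of single events and gene levels under the alternatives 575 kept their side of the cutoffs and 10 did not; those 10 are the FLNA and RAI14 values given in the report. No paired analysis was possible because the tables list the libraries of a group in 1 field without replicate numbers. Depth limits FLNC and the rarer ACTN1 event, whose libraries had down to 3 and 13 reads.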
